A study of Drosophila melanogaster with 12 samples.

Results

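The gap genes and head gap genes hb, Kr, kni, knrl, gt, tll, hkb, btd, ems and oc were followed by their symbols in the gene counts of 12 libraries of *Drosophila* embryo RNA. These are 10 of the 14161 genes counted in each library. Gap genes encode transcription factors that are switched on in broad domains along the head-to-tail axis while the early embryo is still a syncytium, a single cytoplasm with many nuclei. Maternal proteins such as Bicoid and Caudal and signalling by the receptor Torso at the poles position these domains, gap proteins then repress each other, and together they direct the stripes of the pair-rule genes. Most gap RNAs come from the zygotic genome alone, whereas hb is also loaded into the egg as maternal RNA.

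The study asked what the enzyme serine hydroxymethyl transferase (SHMT, gene CG3011), which links serine and glycine to the folate-bound carbon units used in nucleotide synthesis, does in the rapid divisions of the early embryo. Whole embryos of SHMT[X238] germline clones, in which X238 is a stop codon, were compared with embryos of the wild-type stock OregonR. The clones were made with a heat-shock Flipase and ovo[D] selection, so that the egg came from mutant germ cells, while the embryo itself could carry a paternal copy of the gene. Embryos were collected by time after egg lay from flies on apple juice plates with yeast, and 4 groups of 3 libraries resulted. They were SHMT[X238] labelled 1.5–2.5 hr (late blastoderm), OregonR labelled 1.5–2.5 hr, SHMT[X238] labelled 0–1 hr (preblastoderm) and OregonR labelled 0–1 hr. The triplicates are called biological, but no source says that they came from separate parents, so p-values measure the spread between these samples.

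Each library held between 21045142 and 35106444 reads assigned to genes. CG3011 itself had 117 to 3205 counts in SHMT and 75 to 3503 in wild-type libraries, and since a stop codon need not remove the RNA, its level does not check the labels. The genotype labels were borne out by pn, an eye colour gene marked by a mutation on the SHMT[X238] chromosome, with 24 to 126 counts in the 6 SHMT libraries and 1014 to 1661 in the 6 wild-type libraries. The stage labels ran against the RNA. Summed over 8 markers of blastoderm transcription (slam, nullo, bnk, Sry-alpha, sna, kuk, Z600 and zen), libraries labelled 1.5–2.5 hr held 763 to 939 CPM (counts scaled to library size) in SHMT and 910 to 1007 CPM in wild type. Those labelled 0–1 hr held 7784 to 12330 CPM in SHMT and 13292 to 18094 CPM in wild type. Markers of maternal RNA went the other way, with 4500 to 4580 CPM in SHMT and 4830 to 4984 CPM in wild type at the label 1.5–2.5 hr, against 1336 to 2035 CPM and 1207 to 1642 CPM at the label 0–1 hr. All groups are named by their labels here. Had the labels been exchanged in both genotypes, the genotype comparison given for 0–1 hr would be that for 1.5–2.5 hr and every stage difference would change its sign. Replicates were compared by their mean squared difference over genes, as a multiple of the variance from sampling alone (chi-square per degree of freedom). In the SHMT group labelled 0–1 hr it was 59.6 and 64.2 between replicate 3 and replicates 1 and 2, and 12.3 between those. Between the 3 wild-type libraries with that label it was 55.2 to 67.7.

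All 10 genes averaged at least 50 counts in at least 1 group and were tested, among 6884 genes in all. hb passed that minimum at both labels, Kr also in wild type labelled 1.5–2.5 hr, and the other genes only through libraries labelled 0–1 hr. For knrl it was passed through a single library, replicate 1 of wild type, with 133 counts.

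In libraries labelled 0–1 hr, gap RNAs were abundant in both genotypes, and 5 of the 10 genes, hb, kni, btd, ems and oc, were lower in SHMT by edgeR's quasi-likelihood test at an adjusted p under 0.05. None was higher. Of all tested genes 25.8% passed as lower and 32.9% as higher. The median difference of the 10 genes, SHMT minus wild type, was −1.16 on the log2 scale, beside 0.02 over all tested genes. The lower level was uneven, from a mean of 25.3% of the wild-type mean for kni to 87.8% for Kr. None of the 10 passed the test with a change of over 4-fold, which 1.38% of all genes did in the lower direction.

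Of the trunk gap genes, kni, which encodes a nuclear-receptor-like repressor of the abdomen, had the lowest share of its wild-type level. It stood at 35.8, 32.5 and 64.2 CPM in SHMT libraries labelled 0–1 hr, against 204, 137 and 182 CPM in wild type. The groups did not overlap, and the highest SHMT value, in replicate 3, was less than the lowest wild-type value, in replicate 2. The difference was −1.98 on the log2 scale (SE 0.51, edgeR adjusted p = 0.00629). By DESeq2 the adjusted p was 0.117, so this call depends on the tool.

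Kr, the zinc finger gene of the central domain, differed from kni in this. It stood at 163, 192 and 283 CPM in SHMT libraries labelled 0–1 hr, against 304, 201 and 221 CPM in wild type. The groups overlapped, and the SHMT library with the most Kr exceeded the middle wild-type library. The difference was −0.19 on the log2 scale (SE 0.49, edgeR adjusted p = 0.760), and it had the opposite sign when libraries were scaled by their totals alone (0.03) or when wild-type replicate 1 was left out (0.0061). Part of Kr overlaps the gene CG9380 in the annotation of assembly BDGP6, and how the counting treated strand is not given in the sources used here.

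gt encodes a leucine zipper repressor with an anterior and a posterior domain. Its level was 80.4, 67.5 and 133 CPM in SHMT libraries labelled 0–1 hr, against 198, 124 and 183 CPM in wild type. SHMT replicate 3 lay above wild-type replicate 2, so the groups overlapped, and the difference of −0.85 on the log2 scale (SE 0.49) did not pass the test (edgeR adjusted p = 0.158). The difference passed when only these 6 libraries were fitted (edgeR adjusted p = 0.0312), but in no fit that left out a single library.

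hb, the zinc finger gene of the anterior domain, stood at 367, 289 and 623 CPM in SHMT libraries labelled 0–1 hr, against 656, 601 and 819 CPM in wild type. SHMT replicate 3 reached into the wild-type range and the other SHMT libraries lay below it. The difference was −0.70 on the log2 scale (SE 0.23, edgeR adjusted p = 0.0206). The call was lost when SHMT replicate 1 or 2 or wild-type replicate 3 was left out, with adjusted p between 0.0578 and 0.0755. It was also lost with library totals alone (0.0606) and when only these 6 libraries were fitted (0.0548, both edgeR). hb reads in these libraries can come from maternal and zygotic transcripts, which the counts do not separate.

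knrl, a relative of kni that lies 71.67 kb from it on chromosome arm 3L in BDGP6, had few reads. It had 13, 23 and 17 counts in SHMT libraries labelled 0–1 hr, against 133, 7 and 14 counts in wild type. Wild-type replicate 1 stood far above the other 5 libraries, and without it knrl fell under the count minimum and was not tested. kni has 2215 exonic bases within a gene of 3049 bases, whereas knrl has 3909 within 23519, with a longest intron of 15117 bases.

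**Figure D1:**
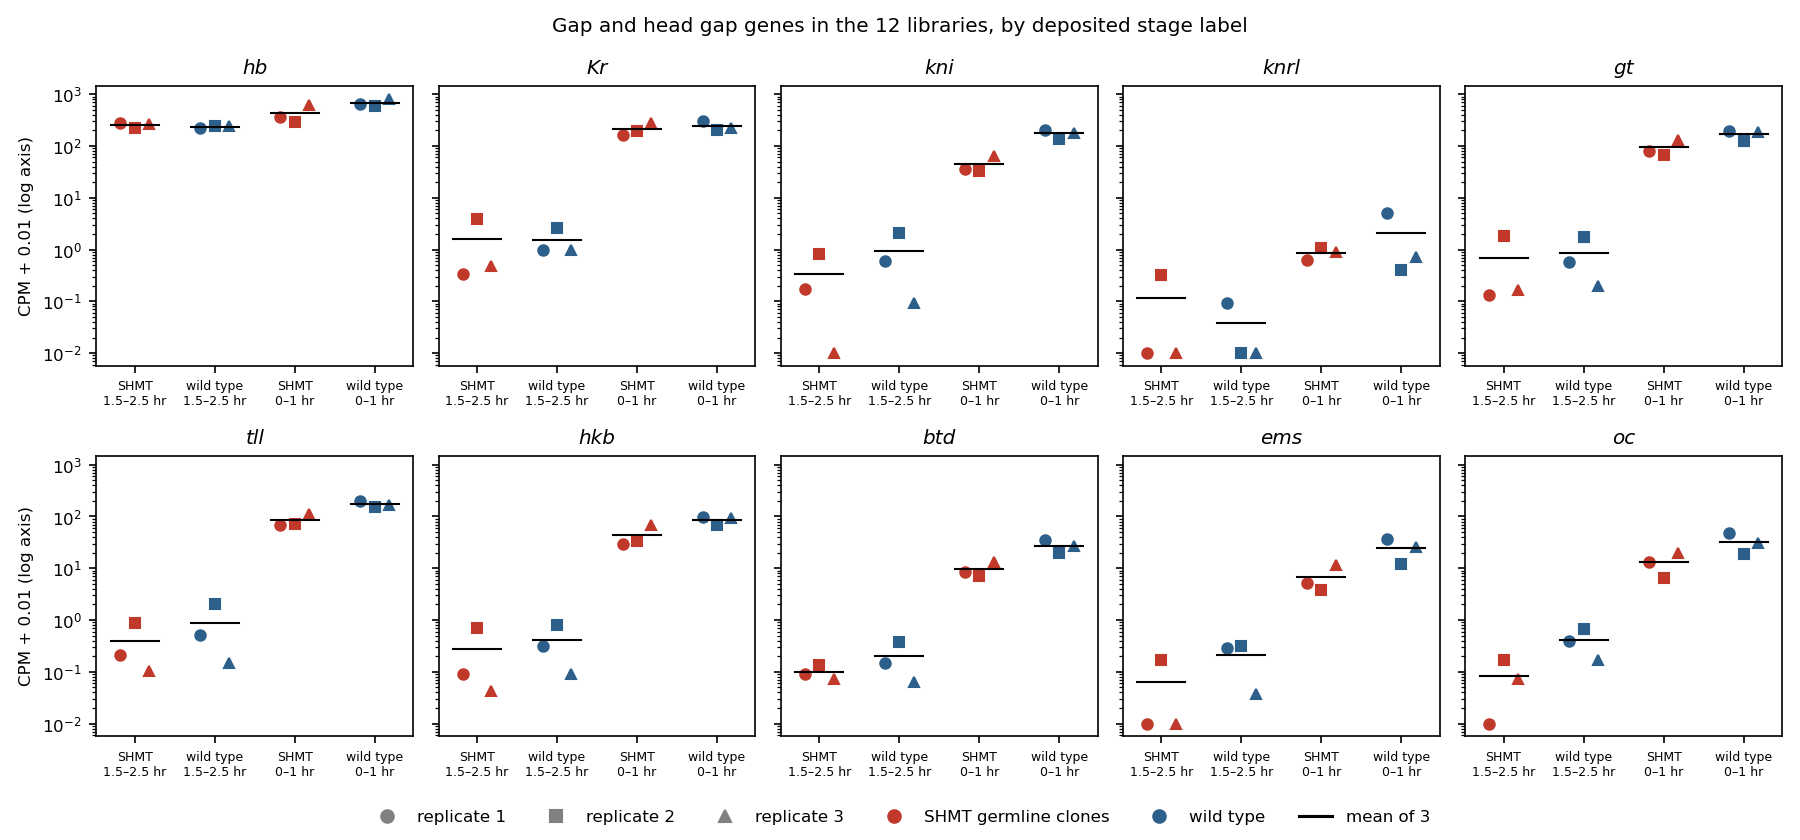
Level of each gene in each of the 12 libraries, in CPM plus 0.01 on a log axis, by genotype and deposited stage label; symbols mark replicates 1 to 3 and bars the mean of 3. In libraries labelled 1.5–2.5 hr every gene but hb lies near the floor, and in those labelled 0–1 hr the SHMT libraries of kni, tll, hkb, btd and ems all lie below the wild-type libraries.

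The terminal genes tll and hkb, which act at the poles downstream of Torso, were close to each other in their genotype difference. tll, a nuclear receptor gene, stood at 69.7, 71.9 and 114 CPM in SHMT libraries labelled 0–1 hr, against 195, 152 and 169 CPM in wild type. hkb, a zinc finger gene, stood at 29.3, 33.2 and 67.8 CPM in SHMT, against 99.7, 68.8 and 92.6 CPM in wild type. In neither gene did the groups overlap, although for hkb SHMT replicate 3 came close to wild-type replicate 2. Neither passed the test, with differences of −1.02 for tll and −1.01 for hkb on the log2 scale and edgeR adjusted p of 0.0610 and 0.0532. Both passed when SHMT replicate 3 was left out (adjusted p = 0.0276 for tll and 0.00649 for hkb, edgeR) and when only these 6 libraries were fitted (0.00577 and 0.0292).

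The head gap genes btd, ems and oc all were lower in SHMT at the label 0–1 hr. btd, a zinc finger gene of the Sp family needed for several head segments, stood at 8.33, 6.99 and 13.2 CPM in SHMT, against 34.4, 19.7 and 26.5 CPM in wild type. No SHMT library reached the lowest wild-type library. The difference was −1.50 on the log2 scale (SE 0.31, edgeR adjusted p = 0.00175), and it held in every fit that left out a library, between −1.81 and −1.29.

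ems, a homeobox gene of the head, stood at 5.14, 3.77 and 11.5 CPM in SHMT libraries labelled 0–1 hr, against 36.9, 11.99 and 25.4 CPM in wild type. SHMT replicate 3 came close to wild-type replicate 2, and the groups did not overlap. The difference was −1.87 on the log2 scale (SE 0.51, edgeR adjusted p = 0.00871) with an adjusted p of 0.0520 by DESeq2, and it was −2.48 without SHMT replicate 3.

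oc, the homeobox gene also known as orthodenticle, stood at 13.1, 6.40 and 20.03 CPM in SHMT libraries labelled 0–1 hr, against 47.1, 18.7 and 31.2 CPM in wild type. SHMT replicate 3 exceeded wild-type replicate 2. The difference was −1.30 on the log2 scale (SE 0.43, edgeR adjusted p = 0.0225), and without wild-type replicate 1 or SHMT replicate 1 or 2 the adjusted p lay between 0.0588 and 0.0962.

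By their values alone, 5 of the 10 genes (kni, tll, hkb, btd and ems) had all 3 SHMT libraries below all 3 wild-type libraries, as did 27.3% of tested genes. The count of genes called lower at the label 0–1 hr was 7 without SHMT replicate 3, 3 without SHMT replicate 1 or replicate 2, and 3 by DESeq2 (hb, btd and oc). The summed level of the 8 markers of blastoderm transcription given above was also lower in every SHMT library with this label than in every wild-type library, although slam and kuk alone of the 8 passed the test. In whole embryos, fewer nuclei expressing a gene and less RNA per nucleus cannot be told apart. The part of marker levels, and of the age of the embryos in each collection, in these differences was not tested.

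**Figure D2:**
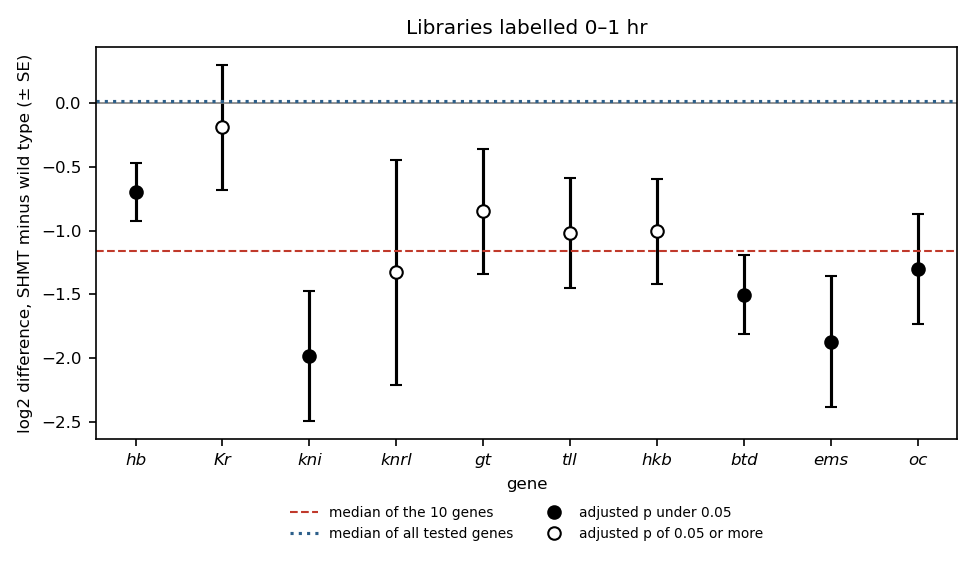
Difference of each gene between SHMT and wild type in libraries labelled 0–1 hr, as log2 SHMT minus wild type from edgeR with its standard error (n = 3 each). Filled points are hb, kni, btd, ems and oc, with an adjusted p under 0.05, and the dashed line is the median of the 10 genes (−1.16).

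Each SHMT library was also set against the wild-type mean of its label. At the label 0–1 hr, kni reached 20.5, 18.7 and 36.8% of that mean in SHMT replicates 1, 2 and 3, and ems reached 20.8, 15.2 and 46.6%. Kr reached 67.4, 79.2 and 117%, and hb 53.1, 41.7 and 90.1%. Replicate 3 was the highest SHMT library for 9 of the 10 genes, knrl being the exception. In wild type, replicate 2 was the lowest library for 10 of 10 genes and replicate 1 the highest for 9, all but hb. Leaving out knrl with its few counts, the spread within a group was widest for the head gap genes ems and oc. The highest over the lowest library was 3.06 for ems and 3.13 for oc in SHMT, and 3.08 and 2.52 in wild type. For tll it was 1.64 in SHMT and 1.28 in wild type.

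**Figure D3:**
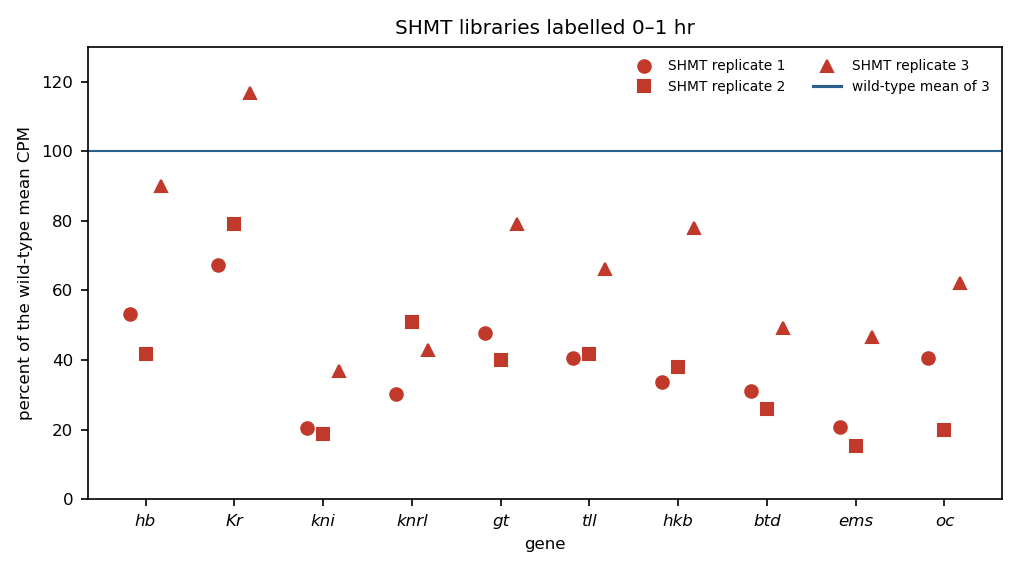
Each SHMT library labelled 0–1 hr as a percentage of the wild-type mean CPM of the same label, per gene; the line marks 100%. Replicate 3 is the highest for every gene but knrl, and Kr alone exceeds the wild-type mean in a library (117%).

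Scaling drops out when 2 genes are compared within a library, and each gene was therefore divided by Kr, which was chosen after its values were seen. Kr was the member least lowered in SHMT (87.8% of the wild-type mean), so this choice favoured lower SHMT ratios for the other members. In libraries labelled 0–1 hr, kni made 0.219, 0.170 and 0.227 of the Kr level in SHMT, against 0.671, 0.681 and 0.821 in wild type. The groups were well separated, with a narrow spread in each. For tll the ratio to Kr was 0.427, 0.375 and 0.403 in SHMT, against 0.643, 0.758 and 0.764 in wild type. Of the 9 genes, 7 had all 3 SHMT ratios below all 3 wild-type ratios (kni, gt, tll, hkb, btd, ems and oc), as did 7.76% of the 6883 tested genes other than Kr. Because of how Kr was chosen, this count describes the members and is no separate test of them. A two-sided exact permutation test gave p = 0.1 for each of the 7, the smallest p that 3 libraries against 3 allow (0.129 adjusted over the 9 ratios). For hb the exact p was 0.3, and for knrl it was 0.9.

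**Figure D4:**
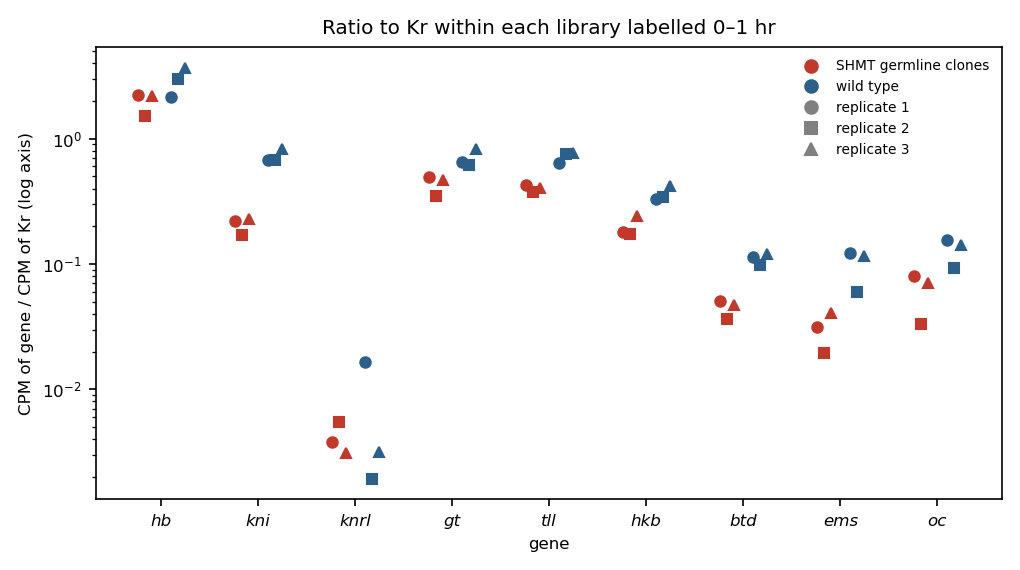
Level of each of the 9 other genes divided by that of Kr in the same library, on a log axis, for the 6 libraries labelled 0–1 hr; symbols mark replicates. The SHMT points lie below all wild-type points for kni, gt, tll, hkb, btd, ems and oc, and overlap them for hb and knrl.

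As shares of the summed CPM of the 9 genes without hb, Kr made 40.0 to 46.2% of the sum in SHMT libraries labelled 0–1 hr and 23.8 to 27.4% in wild type. kni made 7.83 to 9.07% in SHMT and 18.1 to 19.5% in wild type. The shares of tll, btd and ems were also lower in all 3 SHMT libraries, whereas those of gt, hkb, oc and knrl overlapped. The sum itself was 406, 415 and 708 CPM in SHMT, against 1125, 734 and 932 CPM in wild type. Shares of 1 sum are not independent of each other.

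Levels of different genes can be set side by side only per length of transcript. In CPM per kb of exon, hb had the highest mean level of the 10 at the label 0–1 hr in both genotypes, 111 in SHMT and 180 in wild type. In SHMT it was followed by gt (52.7), Kr (48.2), tll (43.4), hkb (27.7) and kni (19.9), and then by btd (3.24), ems (2.75), oc (2.62) and knrl (0.216). The ranges of neighbours overlapped except between hb and gt, kni and btd, and oc and knrl. In wild type the order was gt (94.7), tll (87.7), kni (78.7), hkb (55.5) and Kr (54.9), then ems (9.996), btd (9.16), oc (6.41) and knrl (0.523). Neighbours there were separate only between hb and gt, Kr and ems, and oc and knrl. By these means kni stood below tll and hkb in SHMT and between them in wild type. The ranges of neighbours overlapped, but within libraries these orders held in 3 of 3 in each genotype. The means of hkb and Kr in wild type did not order them, since hkb was above Kr in 1 of the 3 libraries.

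In libraries labelled 1.5–2.5 hr, hb alone of the 10 genes was abundant, and none of the 10 passed the test between the genotypes in edgeR, nor at an unadjusted p under 0.05. Of all genes 7.00% passed. hb stood at 281, 227 and 260 CPM in SHMT and at 222, 243 and 243 CPM in wild type. The groups overlapped (log2 difference 0.12, SE 0.23, edgeR adjusted p = 0.860). hb made 95.9 to 99.7% of the summed CPM of the 10 genes in these libraries.

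The other genes were near the floor at that label. Kr had 8, 123 and 15 counts in SHMT and 35, 104 and 35 in wild type, and kni had 4, 26 and 0 counts in SHMT and 22, 82 and 3 in wild type. In both genotypes replicate 2 was the highest library of its group for 9 of the 10 genes. The same SHMT library also held 56.9 CPM of later cuticle markers, all from kkv. The other libraries of its group held 0.367 and 0.700 CPM, and the other 3 cuticle markers had no count in this group. Markers of later muscle were lowest in the same library, at 0.413 CPM against 6.25 and 2.23 CPM. Those of later neurons were lowest there too, at 0.0636 CPM against 0.0816 and 0.0954 CPM. Whether embryos of another age were present was not tested. oc had 0, 5 and 2 counts in SHMT, against 14, 27 and 6 in wild type. It was the only member with all SHMT libraries below all wild-type libraries, as 22.3% of tested genes had. The oc difference was −2.30 on the log2 scale (SE 1.11) with an adjusted p of 0.302 in edgeR and of 0.0289 in DESeq2, where it was the single gene of the 10 to pass.

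Between the stage labels, all 10 genes were lower at the label 1.5–2.5 hr than at 0–1 hr, in SHMT and in wild type. By edgeR's adjusted p under 0.05, 44.6% of all tested genes were lower in SHMT and 45.9% in wild type. Every library labelled 1.5–2.5 hr lay below every library labelled 0–1 hr for each of the 10 genes in both genotypes, as was so for 45.4% of tested genes in SHMT and 46.3% in wild type. With a change of over 16-fold the count was 8 in SHMT (all but hb and knrl, 3.99% of all genes) and 9 in wild type (all but hb, 4.71%). Since the genes other than hb and Kr were tested only through their counts at 0–1 hr, these numbers describe them and test nothing further.

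The trunk gap genes other than hb and knrl differed by a like amount. In SHMT the log2 differences were −7.02 for Kr, −6.99 for kni and −7.01 for gt, and in wild type −7.32, −7.54 and −7.62. The terminal genes differed by −7.72 (tll) and −7.23 (hkb) in SHMT and by −7.58 and −7.74 in wild type. The head gap genes btd, ems and oc differed by −6.63, −6.78 and −7.29 in SHMT and by −7.09, −6.91 and −6.28 in wild type. The largest edgeR adjusted p among these 8 genes was 1.71e-05, for ems in SHMT. These sizes rest on few counts at the label 1.5–2.5 hr, and replicate 2 with that label decided much of them. Without it ems had no count at that label in SHMT, the other 7 log2 differences lay between −9.54 (hkb) and −6.96 (btd) in SHMT, and the 8 in wild type lay between −9.08 (tll) and −6.87 (oc).

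hb differed least between the labels. It averaged 256 ± 27.2 CPM at the label 1.5–2.5 hr and 426 ± 175 CPM at 0–1 hr in SHMT (SD, n = 3 each), a log2 difference of −0.74 (edgeR adjusted p = 0.00927). In wild type it averaged 236 ± 12.5 CPM and 692 ± 113 CPM, a log2 difference of −1.55 (edgeR adjusted p = 3.81e-05). Scaling by library totals alone ended the SHMT call (adjusted p = 0.0602). knrl had 13 to 23 counts in SHMT libraries labelled 0–1 hr and was tested only through wild-type replicate 1. It passed in SHMT at an adjusted p of 0.0473 in edgeR, and lost the call in 8 of 11 fits that left out a library.

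Whether the stage change differed between the genotypes was tested as an interaction. None of the 10 genes passed by edgeR, against 38.5% of all tested genes, and 1 of the 10, hb, had an unadjusted p under 0.05. The SHMT change of hb minus its wild-type change was 0.81 on the log2 scale (SE 0.32, edgeR adjusted p = 0.0649). It passed by DESeq2 (0.90, adjusted p = 0.0159) and without SHMT replicate 3 labelled 0–1 hr (1.19, edgeR adjusted p = 6.35e-04). For the 9 other genes no difference between genotypes in the stage change passed the test, which does not show that the changes were alike.

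Genes that act before and after the gap genes were examined as lists chosen for their place in this hierarchy. Of 14 maternal inputs, 13 were tested at the label 0–1 hr, of which 2 were higher in SHMT and 5 lower by edgeR (median log2 difference −0.36), beside the 32.9% higher and 25.8% lower of all tested genes. brat, which represses translation of maternal hb RNA, was higher, with 89.1 ± 22.7 CPM in SHMT and 44.2 ± 8.86 CPM in wild type (SD, n = 3 each). pum, its partner on hb RNA, was lower, with 159.5 ± 32.7 CPM in SHMT and 341 ± 58.6 CPM in wild type. The corepressor gene gro was lower too, with 469 ± 149 CPM in SHMT and 919 ± 225 CPM in wild type, as was CtBP, with 729 ± 163 and 1211 ± 161 CPM.

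Of the 9 pair-rule genes, the targets of gap proteins, 8 were lower in SHMT at the label 0–1 hr and none was higher. Their median log2 difference was −1.46. The shares over all tested genes at that label were 25.8% lower and 32.9% higher. Also among the 8, opa passed the count minimum only through wild type, with 8.08 ± 10.7 CPM against 0.387 ± 0.140 CPM in SHMT. eve averaged 9.54 ± 2.25 CPM in SHMT and 59.7 ± 17.6 CPM in wild type, and run 9.60 ± 1.07 and 41.3 ± 14.04 CPM (SD, n = 3 each). Of 10 other genes of the head, poles and trunk, 8 were tested, with 5 lower and 1 higher. The higher gene was cnc, a leucine zipper gene of the head, with 66.7 ± 22.3 CPM in SHMT and 20.3 ± 1.96 CPM in wild type. fkh, a gut gene of the poles, was lower, with 6.03 ± 2.57 CPM in SHMT and 23.0 ± 15.0 CPM in wild type. At the label 1.5–2.5 hr cnc stood higher, with 355 ± 20.8 CPM in SHMT and 383 ± 14.3 CPM in wild type. In each genotype 6 of the 8 tested genes of its list were lower at that label than at 0–1 hr. So were 44.6% of all tested genes in SHMT and 45.9% in wild type. None of the tested genes of these 3 lists passed between the genotypes at the label 1.5–2.5 hr, where 7.00% of all genes passed. The pair-rule genes were near the floor there, with group means of at most 0.568 CPM (ftz in wild type). Their levels are therefore not shown to be alike.

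The 8 homeotic genes, which lie further downstream, and 6 close relatives of the gap genes (eg, Sp1, E5, Ptx1, Gsc and dsf) had too few counts to be tested. At the label 0–1 hr the homeotic genes summed to 0.857 to 1.27 CPM in SHMT and to 3.35 to 5.24 CPM in wild type, and the relatives to 0.408 to 0.876 CPM in SHMT and to 1.06 to 1.69 CPM in wild type. E5 lies 26.9 kb from ems and Sp1 lies 32.1 kb from btd in BDGP6, and these near neighbours were almost silent in the same libraries.

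For each member, the tested gene with the most similar profile was sought, by the root mean square difference of log2 CPM over the 12 libraries after each gene was centred on its own mean. The closest match was between hb and raps, at 0.0936. gt was closest to tld (0.195), hkb to sna (0.199), btd to ImpE2 (0.163), ems to fkh (0.225) and tll to CG13868 (0.264). kni was closest to ftz, a pair-rule gene, at 0.331. oc was closest to rib (0.336) and Kr to Neu2 (0.369), whose mean at the label 0–1 hr was 279 CPM in SHMT and 268 CPM in wild type. The low counts of knrl gave the poorest match, danr at 0.752.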

How the data were processed

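RNA of whole embryos was sequenced in 12 libraries, 3 in each of 4 groups taken from the sample labels. The authors deposited a table of counts for each library, whole numbers of reads that HTSeq assigned to each of 14161 genes. The submitters' processing notes name CASAVA 1.8.2, Bowtie2 2.1.0 and the build dm3. HTSeq's version and how it treated strand are not stated there or in the labels. Reads in genes were 86.9 to 93.9% of each library, and the 5 summary lines were left out of library sizes and tests.

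A gene was tested if it averaged 50 or more counts in at least 1 group, as in the study's own filter. edgeR 4.0.16 (R 4.3.3, limma 3.58.1) fitted a quasi-likelihood model with TMM scaling and 4 group means to all 12 libraries. The Benjamini-Hochberg adjustment of p-values covered the 6884 genes tested. CPM use the scaled library sizes. Fold thresholds of 4 (genotype) and 16 (stage) follow the study. Gene lengths, neighbours and arms came from BDGP6 and served for no coordinate. The fit was tested on simulated counts.

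The members and the lists were chosen with earlier results of these data known, among them values of ems, oc and salm in the paper. The text names all 10 members and up to 4 genes of each other list with the lowest adjusted p. It also names, for each member, the most similar gene outside the members. The alternatives were relative log expression (RLE) scaling, library totals alone, DESeq2 1.42.0, count minimums of 1 and 200, an adjusted p under 0.01, a block for the replicate number, only the 2 groups compared, and each library left out. Leaving out both replicates 2 labelled 1.5–2.5 hr, or wild-type replicate 1 and SHMT replicate 3 labelled 0–1 hr, was added after seeing the data. Plots used matplotlib 3.10.9 under Python 3.11.15.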

Additional observations from a re-analysis of the deposited data

How the results depend on the processing

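Over the alternatives tried, 663 of the 716 results on single genes kept their direction and their side of the threshold, 25 lost a call, 26 gained one and 2 reversed. Of the 663, 217 were stage differences in wild type and 204 were stage differences in SHMT. The genotype differences at the label 0–1 hr were less stable, where 183 results were kept, 12 lost a call, 20 gained one and 2 reversed. Both reversals were of Kr at the label 0–1 hr, 0.029 with library totals alone and −0.45 to 0.0061 when each library was left out, the last without wild-type replicate 1. The number of the 10 genes lower in SHMT at that label was 5. It was 3 by DESeq2, 3 at an adjusted p under 0.01 and 8 without both replicates 2 labelled 1.5–2.5 hr, which was chosen after seeing the data, and 3 to 7 when each library was left out. With over 4-fold it was 0, but 1 with RLE scaling, with a minimum of 200 counts, with only the 2 groups compared, and without wild-type replicate 1 and SHMT replicate 3, and 0 to 2 when each library was left out, the 2 being kni and ems without wild-type replicate 2 or SHMT replicate 3. At the label 1.5–2.5 hr DESeq2 called 1 gene, oc, also over 4-fold, against 0 in edgeR. For the interaction 1 gene, hb, passed with RLE scaling, by DESeq2, with the replicate block and without wild-type replicate 1 and SHMT replicate 3, and 0 to 1 when each library was left out.

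Replicate numbers shared by groups did not mark shared parents or days in the labels, so same-numbered libraries were not taken as pairs. Their deviations correlated between −0.24 and 0.54. Between the genotypes at the label 1.5–2.5 hr, the correlation was −0.24, 0.53 and 0.54 for replicates 1, 2 and 3. Libraries of different number gave −0.63 to 0.35 there, and whether same-numbered libraries shared a collection was not tested. With the number as a block the count at 0–1 hr stayed at 5, and the hb interaction was 0.84 (edgeR adjusted p = 0.0298). Library totals alone moved the median of all genes at 0–1 hr to 0.25, against 0.02 with TMM. Among all genes at the label 1.5–2.5 hr, edgeR called 482, DESeq2 769, a fit of only those 2 groups 1226 and a threshold of 0.01 255. That count was 296 to 586 when each library was left out, with 302, 297 and 312 without wild-type replicates 1, 2 and 3 and 296 without SHMT replicate 3 of that label. It was 231 without both replicates 2 and 810 without wild-type replicate 1 and SHMT replicate 3 labelled 0–1 hr. For the interaction they were 2649 at 0.05 and 1561 at 0.01. Low counts limit the comparisons at the label 1.5–2.5 hr, where the 9 genes other than hb had 0 to 123 counts per library. In the same libraries hb had 6877 to 9787 counts.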

Other observations

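At the label 0–1 hr, 2 of the 8 maternal egg RNAs were higher in SHMT by edgeR and none was lower, and 2 of the 8 markers of blastoderm transcription were lower and none was higher. Over all tested genes 32.9% were higher and 25.8% lower, so neither count stands above that share. osk, the germ plasm organiser, averaged 56.6 ± 35.3 CPM in SHMT and 13.7 ± 2.13 CPM in wild type, and vas, a germ plasm helicase gene, 37.6 ± 9.76 and 9.79 ± 1.44 CPM (SD, n = 3 each). Among the blastoderm markers, slam, needed for the furrows of cellularization, averaged 2436 ± 1237 CPM in SHMT and 5245 ± 1544 CPM in wild type, and kuk, a nuclear envelope gene, 3493 ± 436 and 5620 ± 759 CPM.

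Markers of other tissues were low. Those of chorion and follicle cells summed to at most 0.408 CPM in 11 of the 12 libraries, and to 4.68 CPM in wild-type replicate 2 labelled 0–1 hr. Those of fat body and yolk summed to at most 1.43 CPM, of later muscle to at most 6.25 CPM and of later neurons to at most 2.54 CPM. Of these lists the muscle gene Mlc2 alone was tested, and it averaged 0.0805 ± 0.0291 CPM in SHMT and 2.98 ± 0.470 CPM in wild type at the label 0–1 hr. Of the later cuticle markers kkv alone was tested. It reached the count minimum only through SHMT labelled 1.5–2.5 hr, where replicate 2 stood far above the other libraries of its group. Its higher level in SHMT at that label (edgeR adjusted p = 0.0365) rests on that library and describes it only.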
